A study of Arabidopsis thaliana with 6 samples.

Results

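Cysteine-rich receptor-like kinases (CRKs) are plasma-membrane proteins of plants, and the 40 genes of this family described here were chosen by family membership and matched to the arrays by locus. The family and the gene lists used below were chosen with earlier results of these data known, so their shares of called genes can reflect that choice. All 40 members are among the 27827 genes measured. Of the 40, 35 lie on chromosome 4 and 32 lie in 4 groups of loci that follow each other there. These groups are called cluster A (*CRK36* to *CRK40*, 5 genes), cluster B (*CRK30* to *CRK34*, 5 genes), cluster C (*CRK27* to *CRK29*, 3 genes, with 17 other measured loci between *CRK27* and *CRK28*) and cluster D (*CRK5* to *CRK24*, 19 genes). The other 8 genes are called dispersed, although *CRK2* and *CRK3* are neighbours on chromosome 1.

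RNA came from whole seedlings of *Arabidopsis thaliana*, either wildtype (accession Col-0) or *naa20-1*, and each genotype was measured on 3 Affymetrix gene arrays (version 1.0 of the Arabidopsis ST design). The mutant is a single T-DNA insertion line in the gene of the catalytic subunit of the N-terminal acetyltransferase NatB, which acetylates the N-termini of proteins while they are made. Both genotypes were 17 days old, had grown in short days with 8.5 h of light, and had been on medium with 2 mM dithiothreitol (DTT), a reductant that breaks disulfide bonds, for 15 days. Since both genotypes were on DTT, every value compares *naa20* with wildtype under this stress, and none gives the effect of DTT itself or of the mutation without it. The labels give pools of at least 10 seedlings per array, while a legend in the study gives individual plants. The same legend says that the 3 samples used per condition were chosen by integrity and purity of their mRNA. By the labels both genotypes were moved to DTT at 2 days of age, with equal time on it. The methods name a start on medium without DTT only for the mutants, to account for their later germination. Genotype cannot be told apart from stage where stage differs, or from time on DTT if that differed despite the labels.

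A CRK protein has an extracellular part with DUF26 domains, which carry conserved cysteines joined by disulfide bonds, then a membrane span and a protein kinase inside the cell. Many members are induced by pathogens, by salicylic acid and by reactive oxygen species, and some act beside the flagellin receptor FLS2 and its co-receptor BAK1 or on the NADPH oxidase RBOHD, which makes apoplastic reactive oxygen species. Tandem duplication has produced most of the family in Arabidopsis, so that neighbours in a cluster are often close in sequence.

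The signals are log2 values after background correction and quantile normalization, on which the lowest value is 1.746, the median of the genes' means 6.12 and the highest value 14.58. Differences are *naa20* minus wildtype on this scale, tested with limma (moderated variance, Benjamini-Hochberg adjustment over all 27827 genes), and a gene was called different at an adjusted p under 0.05 with at least a 2-fold difference. The *NAA20* transcript (AT1G03150) had log2 signals of 7.44, 6.98 and 7.54 in *naa20* and 8.69, 8.56 and 8.83 in wildtype, which differ by -1.38 (adjusted p = 0.000689 from limma), so the arrays follow their labels, and a transcript signal remains in the mutant. Leaf and root RNA were both present. All 5 markers of root were lower in *naa20*, and 4 of the 5 were called without each single *naa20* array. The summed linear signals of all 5 were 315 to 371 against 1626 to 1940 in wildtype, most of it from *CASP1*. In *naa20* the *CASP1* mean was 8.21, and that of *IRT1*, the lowest of the 5, was 2.31. Of 5 leaf markers, 4 had a lower signal at an adjusted p under 0.05 in limma, none of them by 2-fold, with sums over these 4 of 12990 to 15600 against 21100 to 22390. The fifth, *RBCS1A*, had the same value on all 6 arrays, and with it the sums were 31520 to 34130 against 39640 to 40930. Quantile normalization gives every array the same set of values, so this equal value shows an equal rank of *RBCS1A*, not an equal amount of its RNA. Among 3 senescence markers, *SAG13* was higher by 6.04 (adjusted p = 3.42e-05 from limma), *ORE1* had 0.78 (adjusted p = 0.103), and *SAG12* had a low signal in both genotypes. The summed linear signals of all 3 were 895 to 1116 in *naa20*, most of it from *SAG13*, against 97.3 to 220 in wildtype. Without the third wildtype array, 2 of these 3 were called. The part of these shifts in the CRK values was not tested, and in RNA of whole seedlings fewer cells of a type and less RNA per cell cannot be told apart.

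In the family, 20 of 40 genes were higher in *naa20* than in wildtype on DTT, and 0 were lower by this rule. Over all genes 4.95% were called higher and 4.97% lower, 9.92% together. At least a 4-fold higher signal was found for 13 members, against 1.48% of all genes. The median difference of the 40 members was 1.00, while that of all genes was near 0 (-0.0039). With the adjusted p alone, 25 members were higher and 4 lower (16.6% and 17.4% of all genes, 33.9% together), and 11 did not pass. At a 1.5-fold limit, 24 members were called higher and 3 lower (9.82% and 11.1% of all genes). In 26 members every *naa20* array lay above every wildtype array, and in 5 every *naa20* array lay below (23.4% and 24.1% of all genes, 47.5% together). For each of the 20 called members the arrays separate completely, and the exact permutation test (two-sided) then gives p = 0.1, the smallest value that 3 against 3 arrays allow. The per-array median over the 40 members was 6.67, 6.11 and 6.11 in *naa20* and 4.42, 4.24 and 4.34 in wildtype, so no *naa20* array comes near a wildtype array.

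Most called members lay in clusters A and D. Cluster A had 4 of its 5 genes called and cluster D 13 of 19, while clusters B and C had 0 of 5 and 0 of 3, and the dispersed genes had 3 of 8. Over all genes 4.95% were called higher, so 0 calls among 5 or 3 genes is near that share. The median difference was 3.05 in cluster A, 1.45 in cluster D, 0.14 in cluster B, 0.12 in cluster C and 0.19 in the dispersed genes. The 4 called genes of cluster A had wildtype means under the 25th percentile of all genes' mean signals, so the size of its median is uncertain. Differences between clusters were not tested. Close sequences within a cluster can share signal between probes, and probe sequences were not used here, so values of single members are less certain than their labels imply.

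**Figure D1:**
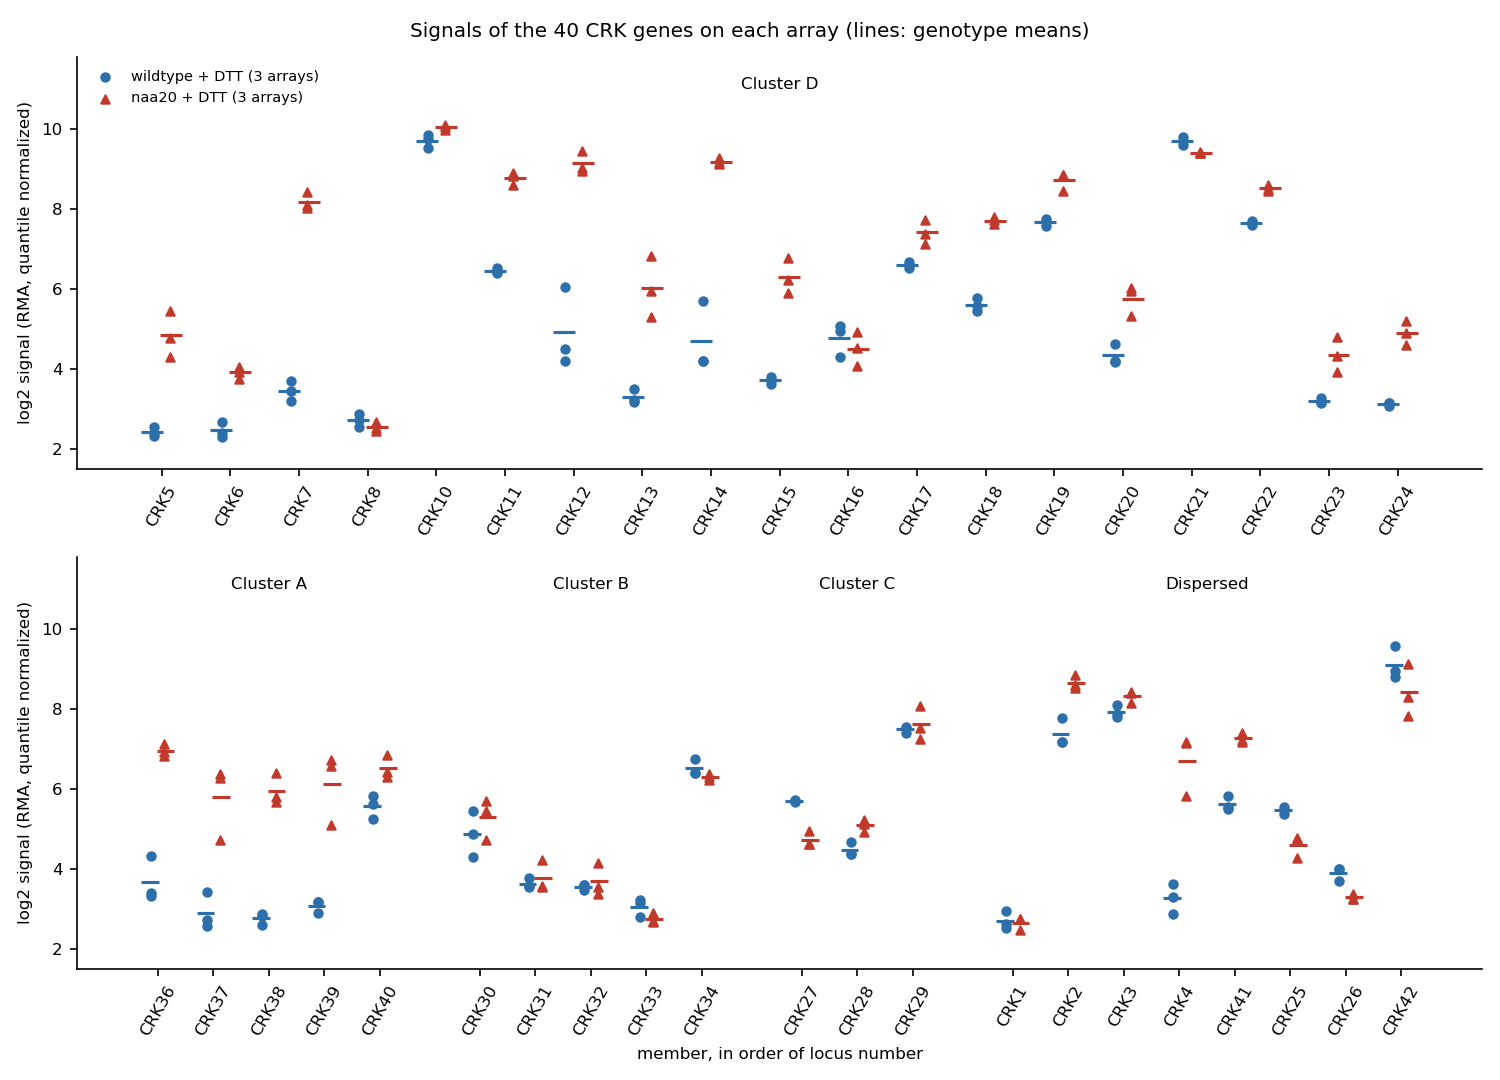
Log2 signal of each of the 40 CRK genes (horizontal axis, by locus number within each group) on each of 3 wildtype (blue circles) and 3 *naa20* (red triangles) arrays, all on DTT, with short lines at the genotype means. In clusters A and D most red points lie above all blue points, with the widest gap in *CRK7*, while in cluster B the points of the genotypes overlap in 4 of 5 genes.

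Cluster D held the highest differences of the family. *CRK6* and *CRK7*, neighbouring genes that take part in the response to extracellular reactive oxygen species, were both higher in *naa20*. *CRK7* (AT4G23150) had log2 signals of 8.43, 8.09 and 8.01 in *naa20* and 3.43, 3.19 and 3.69 in wildtype, a difference of 4.74 (standard error, SE, 0.16, adjusted p = 1.83e-05 from limma). This was the highest difference among the 40 members. *CRK6* (AT4G23140) had 4.06, 3.93 and 3.75 in *naa20* and 2.29, 2.40 and 2.68 in wildtype, a difference of 1.45 (adjusted p = 0.000257). The wildtype means of both genes lie under the 25th percentile of all genes' mean signals, so the sizes of these differences are less certain than their direction.

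*CRK12* and *CRK14* were the next highest. *CRK14* (AT4G23220) had log2 signals of 9.26, 9.16 and 9.11 in *naa20* and 4.19, 4.19 and 5.69 in wildtype, a difference of 4.49 (adjusted p = 0.000189 from limma, SE 0.38), and *CRK12* (AT4G23200) had 9.44, 8.95 and 9.03 in *naa20* and 4.20, 4.49 and 6.04 in wildtype, a difference of 4.23 (SE 0.45, adjusted p = 0.000455). The *naa20* arrays of both genes lie close together, whereas the third wildtype array stands above the other two wildtype arrays in both. Without that array the differences were 4.99 for *CRK14* and 4.79 for *CRK12*. The same wildtype array was also the highest for *CRK36*, for *CRK2* and for the senescence marker *SAG13*, which had 9.68, 9.49 and 9.81 in *naa20* and 3.16, 3.28 and 4.42 in wildtype. This does not hold across the family. The third wildtype array was the highest of its genotype for 16 members, the first for 17 and the second for 7.

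*CRK5*, *CRK19* and *CRK20* are pathogen-induced kinases whose forced expression causes cell death in leaves, as does that of the dispersed *CRK4*. All 4 were higher in *naa20*. *CRK4* (AT3G45860) had log2 signals of 7.17, 7.14 and 5.81 in *naa20* and 2.88, 3.62 and 3.30 in wildtype, a difference of 3.44 (adjusted p = 0.000547 from limma, SE 0.38), the highest of the dispersed genes. *CRK5* (AT4G23130) had 4.77, 4.30 and 5.45 in *naa20* and 2.54, 2.33 and 2.38 in wildtype, a difference of 2.42 (adjusted p = 0.000514). Both had wildtype means under the 25th percentile of all genes' mean signals and *naa20* means above it. *CRK20* (AT4G23280) had 5.94, 5.31 and 6.01 in *naa20* and 4.63, 4.17 and 4.20 in wildtype (1.42, adjusted p = 0.00213). *CRK19* (AT4G23270) had 8.84, 8.46 and 8.86 in *naa20* and 7.75, 7.68 and 7.58 in wildtype (1.04, adjusted p = 0.0009). *CRK19* thus lies just past the 2-fold limit, and it fell below that limit without the first *naa20* (0.98), the third *naa20* (0.97) or the third wildtype array (just under 1.00).

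*CRK13*, overexpression of which raises salicylic acid and resistance to *Pseudomonas syringae*, had log2 signals of 6.83, 5.96 and 5.29 in *naa20* and 3.21, 3.16 and 3.49 in wildtype, a difference of 2.74 (adjusted p = 0.00106 from limma, SE 0.35). Nearby, *CRK15* (AT4G23230) had 6.78, 5.89 and 6.22 in *naa20* and 3.72, 3.62 and 3.79 in wildtype, a difference of 2.59 (adjusted p = 0.000163). In both genes the first *naa20* array was the highest and no *naa20* array came near wildtype.

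*CRK10* and *CRK11*, also known as *RLK4* and *RLK3*, are neighbours that both belong to the pathogen-induced kinases. Only *CRK11* passed the test. It had log2 signals of 8.81, 8.61 and 8.90 in *naa20* and 6.39, 6.53 and 6.45 in wildtype, a 4.98-fold higher signal in *naa20* (difference 2.32, SE 0.10, adjusted p = 2.38e-05 from limma). *CRK10* (AT4G23180) had 9.97, 10.05 and 10.10 in *naa20* and 9.85, 9.75 and 9.52 in wildtype, a difference of 0.33 (95% interval 0.07 to 0.59, adjusted p = 0.0544). The *CRK10* arrays do not overlap between genotypes, but a 2-fold difference lies outside the interval. *CRK10* passed the adjusted p with trend and robust moderation (0.0234 from limma) and without the dimmest 25% of genes (0.0423). The gene models of *CRK10* and *CRK11* overlap, as do those of *CRK16* and *CRK17* and of *CRK28* and *CRK29*, so that probes in the shared parts could serve both genes of a pair.

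*CRK18*, *CRK23* and *CRK24* complete the called genes of cluster D. *CRK18* (AT4G23260) had log2 signals of 7.80, 7.62 and 7.71 in *naa20* and 5.78, 5.45 and 5.57 in wildtype (2.11, adjusted p = 3.7e-05 from limma) and *CRK24* (AT4G23320) 4.89, 4.60 and 5.20 in *naa20* and 3.15, 3.06 and 3.15 in wildtype (1.78, adjusted p = 0.000191). *CRK23* (AT4G23310) had 3.93, 4.80 and 4.33 in *naa20* and 3.16, 3.15 and 3.27 in wildtype (1.16, adjusted p = 0.00442). The *CRK23* difference was 0.94, under the 2-fold limit, without the second *naa20* array.

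The other genes of cluster D lie among these without the 2-fold difference. *CRK22*, next to *CRK23*, had a difference of 0.88 (adjusted p = 0.000348 from limma) and *CRK17*, named *EMB1290* for the embryo defect of its mutant, 0.82 (adjusted p = 0.00582). *CRK21* (AT4G23290) went the other way. It had log2 signals of 9.40, 9.39 and 9.41 in *naa20* and 9.70, 9.61 and 9.80 in wildtype, the lowest difference of the cluster with -0.30 (SE 0.09, adjusted p = 0.0339). This small difference did not pass with the replicate number as a block (adjusted p = 0.0508 from limma) or with any array but the second wildtype array left out (0.0669 to 0.0902). *CRK16* (AT4G23240) had -0.27 (95% interval -0.91 to 0.37, adjusted p = 0.504) and *CRK8*, near the lower end of the scale in both genotypes, -0.17 (adjusted p = 0.331). Genes side by side in this cluster thus stood on different sides of the limits, as did *CRK7* and *CRK8* or *CRK20* and *CRK21*.

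**Figure D2:**
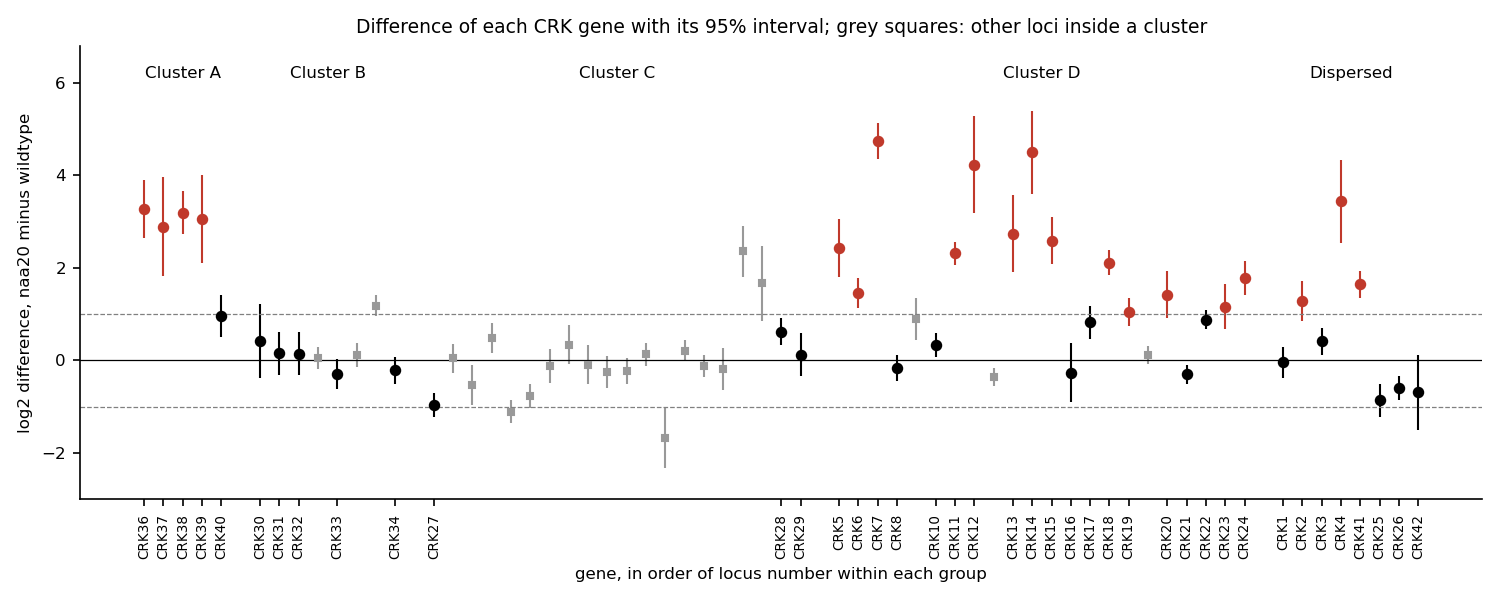
Log2 difference between *naa20* and wildtype on DTT (vertical axis) with its 95% interval from limma for the 40 CRK genes in order of locus number within each group, red where called higher and black otherwise. Grey squares are other measured loci inside a cluster, dashed lines mark the 2-fold limits, and the red genes are in clusters A and D and among the dispersed genes.

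In cluster A, 4 neighbouring genes had differences between 2.89 and 3.28. Their wildtype means, from 2.76 to 3.67, all lie under 3.755, the 25th percentile of all genes' mean signals. The sizes of these differences are therefore less certain than their direction. *CRK36*, a kinase that acts in abscisic acid and flagellin responses, had log2 signals of 7.12, 6.92 and 6.81 in *naa20* and 3.30, 3.38 and 4.33 in wildtype, a difference of 3.28 (adjusted p = 0.000159 from limma, SE 0.27). *CRK38* (AT4G04510) had 6.39, 5.68 and 5.78 in *naa20* and 2.81, 2.59 and 2.88 in wildtype, a difference of 3.19 (SE 0.19, adjusted p = 5.76e-05). In both genes every *naa20* array lies far above every wildtype array. *CRK37* (AT4G04500) had 6.37, 6.26 and 4.73 in *naa20* and 3.42, 2.56 and 2.71 in wildtype (2.89, adjusted p = 0.00246) and *CRK39* (AT4G04540) 6.56, 5.08 and 6.72 in *naa20* and 3.17, 2.88 and 3.16 in wildtype (3.05, adjusted p = 0.00118). The low *naa20* array was the third for *CRK37* and the second for *CRK39*, and without it the differences were 3.42 and 3.57. *CRK40*, at the end of the cluster, had 6.85, 6.41 and 6.29 in *naa20* and 5.82, 5.61 and 5.24 in wildtype, a difference of 0.96 (adjusted p = 0.00797), just under the 2-fold limit. The adjusted p of *CRK40* was 0.0554 with ordinary variance per gene. The gene was past the 2-fold limit without the second *naa20* (1.02), the third *naa20* (1.07) or the first wildtype array (1.09).

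The dispersed genes went in both directions. *CRK2*, a kinase that phosphorylates RBOHD, had log2 signals of 8.60, 8.53 and 8.84 in *naa20* and 7.16, 7.17 and 7.77 in wildtype, a difference of 1.29 (adjusted p = 0.0017 from limma, SE 0.18). *CRK3*, its neighbour, had a difference of only 0.42 (adjusted p = 0.0364), which did not pass without the first or the third *naa20* array or the first or the second wildtype array (0.0982 to 0.119), nor with ordinary variance per gene (0.0896). *CRK41*, with a role in the response to salt, had 7.22, 7.40 and 7.16 in *naa20* and 5.55, 5.83 and 5.48 in wildtype, a difference of 1.64 (SE 0.12, adjusted p = 0.000119). These arrays are tight within each genotype. *CRK25* was the lowest of the dispersed genes, with 4.26, 4.76 and 4.75 in *naa20* and 5.46, 5.55 and 5.36 in wildtype, a difference of -0.87 (adjusted p = 0.0043). *CRK26* (AT4G38830) had -0.60 (adjusted p = 0.00565), so both of these were lower in *naa20* by less than 2-fold. *CRK42* (AT5G40380) spread widely (8.41 ± 0.65 in *naa20* and 9.10 ± 0.41 in wildtype, SD, n = 3), with -0.69 (adjusted p = 0.172). With the replicate number as a block, *CRK42* passed (adjusted p = 0.0105 from limma), and so it did without the third *naa20* array, with a difference of -1.04 (adjusted p = 0.027). *CRK1* was near the lower end of the scale in both genotypes (-0.04, adjusted p = 0.85).

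Clusters B and C held no called gene. In cluster B none of the 5 genes passed the adjusted p either. Its highest difference was that of *CRK30*, with log2 signals of 5.45, 4.71 and 5.69 in *naa20* and 5.43, 4.28 and 4.87 in wildtype (0.43, 95% interval -0.38 to 1.23, adjusted p = 0.395 from limma), where the arrays overlap and the interval still includes a 2-fold difference. The lowest was that of *CRK33*, with 2.67, 2.88 and 2.70 in *naa20* and 3.23, 2.78 and 3.14 in wildtype (-0.30, adjusted p = 0.146), which had an adjusted p of 0.0389 without the second wildtype array. *CRK31* had 0.15 (-0.31 to 0.61), *CRK32* 0.14 (-0.32 to 0.60) and *CRK34* -0.22 (-0.51 to 0.07), and these 95% intervals, like that of *CRK33* (-0.62 to 0.03), exclude a 2-fold difference. *CRK32* and *CRK33* (AT4G11490) had means under the 25th percentile in both genotypes, where a difference could be missed.

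In cluster C, *CRK28* and *CRK29*, kinases that associate with each other and of which *CRK28* acts with BAK1, lie side by side. *CRK28* (AT4G21400) had log2 signals of 5.22, 5.11 and 4.92 in *naa20* and 4.65, 4.37 and 4.36 in wildtype, a difference of 0.62 (adjusted p = 0.00752 from limma), and *CRK29* (AT4G21410) had a difference of 0.12 (95% interval -0.35 to 0.59, adjusted p = 0.694), which became -0.11 without the third *naa20* array. *CRK27* (AT4G21230) had 4.93, 4.62 and 4.62 in *naa20* and 5.71, 5.70 and 5.66 in wildtype, the lowest difference of the family with -0.97 (SE 0.11, adjusted p = 0.00061). All *naa20* arrays of *CRK27* lie below all wildtype arrays, at a 1.95-fold lower mean signal, and without the first *naa20* array the difference was -1.07, past the 2-fold limit.

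The loci around the members were measured on the same arrays. Of 23 measured loci that lie inside the clusters without being members, 3 were called higher and 2 lower, with a median difference of 0.05. Of the 40 loci that flank the clusters, 5 on each side, 2 were called higher and 2 lower (median 0.02). The shares of all genes called were 4.95% higher and 4.97% lower. Inside cluster D, none of the 3 loci that are not members was called, and *CRK9*, which carries a CRK number, is among them. Inside cluster C, 4 of 17 were called, among them *RK3* (2.36, adjusted p = 0.000363 from limma) and *B120* (1.67, adjusted p = 0.00858), lectin receptor-like kinases of another family that lie next to *CRK28*, and *ATK1* (-1.11) and *B70* (-1.68) in the other direction. Inside cluster B, AT4G11521 was higher by 1.18 (adjusted p = 0.000158). Beside clusters A and D, 1 of 10 flanking loci each was called higher, the autophagy gene *ATG8B* (1.06) at cluster A and *GSH1* (1.60), which encodes the first enzyme of glutathione synthesis, at cluster D. The 2 flanking loci called lower were *WRKY42* (-1.02) at cluster A and AT4G21445 (-1.60) at cluster C.

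Wildtype signals of many called members were low. For 12 of the 20 the wildtype mean was under 3.755, the 25th percentile of the genes' mean signals, whereas 4 members were under it in both genotypes and none of these was called. Low signals leave the size of a difference uncertain. With all genes split into 4 bins of like size by mean signal, 2 of 8 members in the lowest bin were called higher, 11 of 17 in the next, 6 of 10 in the bin above and 1 of 5 in the highest. Over all genes, these bins had 1.04%, 6.91%, 6.81% and 5.05% called higher. The lowest and highest bins hold few members. The mean signal is over both genotypes, so a high *naa20* signal itself moves a member to a higher bin. Thus 12 called members had a low wildtype mean, while the lowest bin held 2 called members. The bins therefore do not show how many calls come from genes with low wildtype signals.

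**Figure D3:**
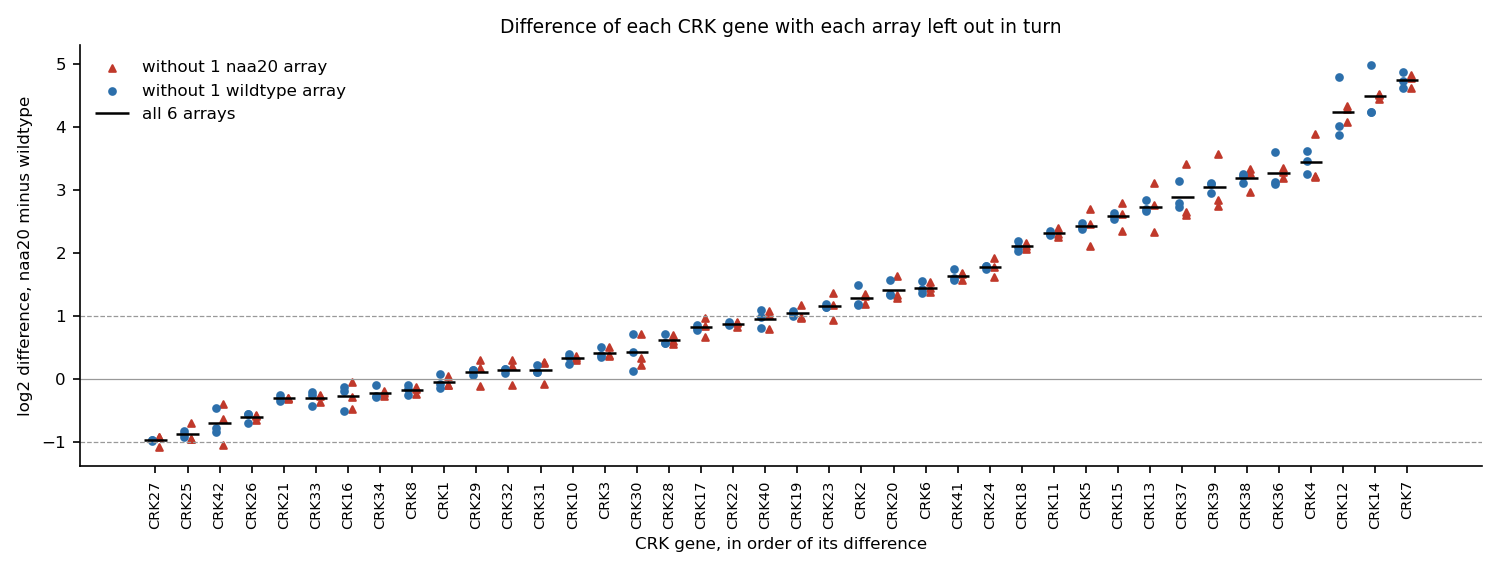
Log2 difference of each CRK gene with 1 of the 3 *naa20* arrays (red triangles) or 1 of the 3 wildtype arrays (blue circles) left out, beside the difference from all 6 arrays (black lines), in order of that difference. Every gene from *CRK2* upward stays past the upper dashed 2-fold line in all 6 fits, while *CRK40*, *CRK19* and *CRK23* cross it, and *CRK27* and *CRK42* cross the lower line.

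Genes related to the family by name, domain or known partnership went in both directions. Of 6 other genes with CRK numbers, 5 were measured and 1 was called higher (4.95% of all genes). This was *CRK45* (AT4G11890), a kinase that interacts with CRK36 in abscisic acid signalling. It had log2 signals of 6.35, 6.29 and 5.80 in *naa20* and 3.29, 3.38 and 4.23 in wildtype, a difference of 2.51 (adjusted p = 0.000489 from limma, SE 0.27). *CRK9* (AT4G23170), which lies inside cluster D, had a difference of 0.89 (adjusted p = 0.0107), and 1.01 without the first *naa20* array. The other three, *CRK43*, *CRK44* and *CRK46*, had 0.38, -0.16 and -0.14, and none of these passed the adjusted p.

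Plasmodesmata-located proteins (PDLPs) have DUF26 domains as CRKs do, but no kinase, and regulate the channels between cells. Of 8 *PDLP* genes, 0 were called higher and 1 was called lower (4.95% and 4.97% of all genes). The lower gene was *PDLP2*, with log2 signals of 7.56, 7.41 and 7.62 in *naa20* and 8.69, 8.64 and 8.53 in wildtype (-1.09, adjusted p = 0.000228 from limma). With the adjusted p alone, *PDLP1* was higher (0.98, adjusted p = 0.0012), and *PDLP3* (-0.60), *PDLP4* (-0.47) and *PDLP6* (-0.32) were lower. By that measure 16.6% of all genes were higher and 17.4% lower. *PDLP6* was near the lower end of the scale in both genotypes, with means of 2.52 in *naa20* and 2.84 in wildtype. The wildtype mean of *PDLP1* (3.03) was also under the 25th percentile of all genes' mean signals. *PDLP3* did not pass without the first *naa20* array or any 1 wildtype array (0.059 to 0.08), *PDLP4* without the second *naa20* (0.0547) or the first wildtype array (0.0718), and *PDLP6* with any array but the first wildtype array left out (0.0642 to 0.145). *PDLP1* was past the 2-fold limit in 4 of these 6 fits, with up to 1.05. *PDLP5*, which closes plasmodesmata in response to salicylic acid, had 0.25 (95% interval -0.11 to 0.60, adjusted p = 0.263).

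Among 8 genes of partners in CRK signalling, 2 were called higher and 0 lower (4.95% and 4.97% of all genes). *BIK1*, a kinase of the cytoplasm that links receptors to RBOHD, had log2 signals of 10.87, 10.55 and 11.07 in *naa20* and 9.63, 9.74 and 9.68 in wildtype (1.15, adjusted p = 0.000784 from limma). *FLS2* had 5.17, 5.14 and 4.39 in *naa20* and 4.20, 4.12 and 3.33 in wildtype (1.02, adjusted p = 0.0328). The *FLS2* call was lost without the first or the second *naa20* array, or the second or the third wildtype array (adjusted p = 0.0528 to 0.109). *RBOHD* (0.54, adjusted p = 0.0299) and *BAK1* (0.37, adjusted p = 0.0308) passed the adjusted p alone, by less than 2-fold, and *BAK1* did not with the replicate number as a block (adjusted p = 0.0565). *RBOHD* did not pass without the first *naa20* array or any 1 wildtype array (0.0596 to 0.0899), and *BAK1* did not without the first or the third *naa20* or the first or the third wildtype array (0.0616 to 0.0838). *RBOHF* (0.24), *KAPP* (0.22), *PLDALPHA1* (0.06) and *CALS1* (-0.17) did not pass.

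The WRKY transcription factors *WRKY18*, *WRKY40* and *WRKY60*, which act together in defence and bind W-box motifs in promoters, were all higher in *naa20*. Over all genes 4.95% were called higher. *WRKY60* had log2 signals of 8.51, 8.17 and 8.47 in *naa20* and 5.68, 5.88 and 6.35 in wildtype (2.41, adjusted p = 0.000132 from limma), *WRKY40* had 9.09, 8.92 and 10.29 in *naa20* and 7.24, 6.60 and 6.22 in wildtype (2.74, adjusted p = 0.00186) and *WRKY18* had 8.10, 8.06 and 10.10 in *naa20* and 6.39, 6.21 and 6.67 in wildtype (2.33, adjusted p = 0.0119). The third *naa20* array stood above the others for *WRKY18* and *WRKY40*, and without it the *WRKY18* difference was 1.66. Nothing in these 6 arrays tests whether these factors act on the *CRK* genes.

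**Figure D4:**
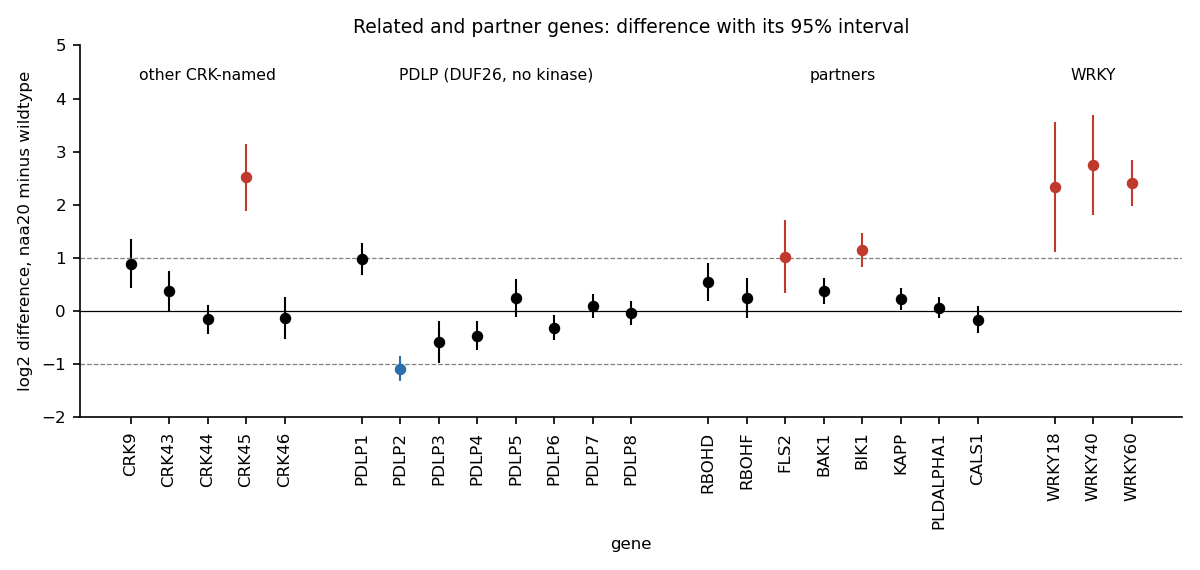
Log2 difference between *naa20* and wildtype on DTT (vertical axis) with its 95% interval from limma for other genes with CRK numbers, *PDLP* genes, partners of CRK signalling and 3 *WRKY* genes, red where called higher, blue where called lower and black otherwise. Only *CRK45*, *FLS2*, *BIK1* and the 3 *WRKY* genes are red and only *PDLP2* is blue.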

How the data were processed

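The deposited values are log2 signals, 1 per gene and array, which the authors made by RMA (background correction, quantile normalization and summary of probes) through a custom CDF version 16 based on TAIR genes, for *naa20* and wildtype seedlings on DTT with 3 arrays each. The TAIR release, and whether arrays without DTT were normalized with these, is not given in the sources used here. Detection calls were not used. The number of arrays limits the precision. Quantile normalization gives all arrays the same distribution, so differences are relative to the other genes.

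The deposited values were compared without further normalization or filter by limma 3.58.1 in R 4.3.3 (lmFit, eBayes), with Benjamini-Hochberg adjustment over 27827 genes. The test was checked on simulated data. Deviations from the genotype means of arrays with equal replicate number correlated across genes with 0.176, 0.19 and 0.385. Each exceeds 0.1, the limit set for treating the numbers as a possible pairing, although neither labels nor methods say what a number shares. Arrays with unequal numbers were not compared, so these values do not show that the arrays are paired. The fit without the block is the main one, and the fit with the block called the same 20 members. P-values measure the spread between these arrays, since it is not certain that each is a separate culture.

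Members and lists were chosen with earlier results of these data known. Any member could be named, with array values for called members and for the highest and lowest of each group. Names and neighbours are from a RefSeq table, which held all 40 members, 2 of them (*CRK1* and *CRK17*) with the CRK number as a synonym. *CRK35*, *CRK9* and the other genes with CRK numbers outside the 40 were listed by locus, and *CRK35* is not analysed here. Alternatives were leaving out each array, the replicate block, array weights, a 1.5-fold limit, unadjusted p, ordinary variance, moderation with trend and robust settings, centring on medians, leaving out the dimmest 25% of genes and quantile normalization once more. For the listed genes, neighbours and list counts, the replicate block and the left-out arrays were chosen after seeing the data. Sequence features of the proteins and promoters were planned and are not analysed here. Figures were drawn with matplotlib 3.10.9.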

Additional observations from a re-analysis of the deposited data

How the results depend on the processing

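The number of members called higher (20) was between 18 and 24 under 15 alternatives. It was 24 with a 1.5-fold limit and 18 when the dimmest 25% of genes, *CRK5* and *CRK6* among them, were left out. Dimness was judged by the mean over both genotypes, so members low in wildtype could stay through their *naa20* signal. That filter therefore does not test how the calls depend on low wildtype signals. Centring on medians and quantile normalization once more left all 40 members as they were. The arrays already had equal medians and the same distribution, so these alternatives could not change the count. With single arrays left out the number called higher was 19 to 21, and 19 or 20 of the called genes were the same ones. The number called lower (0) was 3 with a 1.5-fold limit and 0 to 1 with single arrays left out (*CRK27* or *CRK42*). At the 1.5-fold limit 9.82% of all genes were called higher and 11.1% lower. With the replicate number as a block, the same 20 members were called, and only *CRK21* and *CRK42* among the members and *BAK1* among the listed genes changed their side of the adjusted p. The median of the members stayed between 0.94 and 1.22, where 1.22 is that of the 32 members left without the dimmest genes. Without the dimmest genes, which drop *CRK1* and *CRK26* from the dispersed genes, the dispersed median was 0.85. With single arrays left out, the median was 2.84 to 3.29 in cluster A, -0.089 to 0.27 in cluster B, -0.11 to 0.30 in cluster C, 1.38 to 1.64 in cluster D and 0.13 to 0.27 in the dispersed genes, so the sign in clusters B and C is not fixed. Differences changed sign with an array left out for *CRK1* (-0.14 to 0.085), *CRK29* (-0.11 to 0.30), *CRK31* (-0.076 to 0.27), *CRK32* (-0.089 to 0.30) and *PDLP8* (-0.10 to 0.020), none of which passed the test. *CRK10* passed with trend and robust moderation (adjusted p = 0.0234 from limma) and without the dimmest genes (0.0423), and *CRK3* and *CRK40* did not pass with ordinary variance (0.0896 and 0.0554). With single arrays left out, 1 to 2 of the other CRK-numbered genes, 1 to 2 of the *PDLP* genes, 1 to 2 of the partners and 1 to 2 of the senescence markers were called. The causes were not tested. Low wildtype signals limit how well the size of a difference is known.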
